A study of Mus musculus with 38 samples.

Results

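The 10 AP1 family genes *Fos*, *Fosb*, *Fosl1*, *Fosl2*, *Jun*, *Junb*, *Jund*, *Atf3*, *Batf* and *Batf3*, out of 21938 protein-coding genes, were followed in lists of histone-marked intervals from epidermal stem cells (EpdSCs) of mice in which the transcription factor SOX9 could be switched on. They were chosen by name as members of the family and not by any measured value. A gene's window was its body with 50 kb on both sides in mm10, and an interval belonged to the window when it overlapped it by at least 1 bp. The unit that carries most of the account is the percentage of the window covered by intervals, which corrects for the length of the window.

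AP1 is a family of basic leucine zipper proteins that bind DNA as dimers. JUN proteins pair with themselves or with FOS proteins, while ATF and BATF proteins pair mainly with JUN proteins. Many of these dimers recognize the TPA response element, searched for here as TGANTCA, where N is any base. Several of the genes are immediate early genes that respond to growth factors, stress and wounding through MAP kinases, and in epidermis AP1 acts at enhancers of basal cells and of differentiating keratinocytes. H3K27ac marks active enhancers and promoters, whereas H3K4me1 marks enhancers that are primed or active.

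The skin samples came from male K14rtTA; TRE-myc-Sox9 mice, in which the keratin 14 promoter drives the doxycycline-dependent activator, so that doxycycline (DOX) switches on MYC-tagged SOX9 in basal keratinocytes. Cells negative for CD31, CD45, CD117, CD140a and CD34, high for CD49f and high for Ly6A were sorted from back skin. They were taken at D0, without induction, and after 1, 2, 6 or 12 weeks of DOX (W1, W2, W6 and W12). Up to W6, DOX was given to intact mice from P21. W12 cells came from neonatal skin grafted onto adult female immunocompromised (Nude) hosts, which received DOX after the grafts had healed. The longest time under SOX9 and grafting therefore cannot be told apart. Cultured cells were K14rtTA keratinocytes transduced with DOX-inducible SOX9 in its wild-type (WT) form, without its DNA-binding HMG domain (ΔHMG-SOX9) or without its transactivation domain (ΔTA-SOX9). They were profiled for H3K4me1 with DOX, and WT cells also without DOX. Of 38 libraries, 12 were H3K27ac, 12 H3K4me1 and 12 total H3 of skin (the last not analysed here) and 2 were H3K4me1 of culture. Of the 12 skin libraries of each mark, 6 came from a high and 6 from a low digest with micrococcal nuclease (MNase), labelled with the same replicates, so that they cannot be counted as 12 independent samples. The authors pooled replicates before calling intervals. Each mark therefore had 1 list per time point or culture condition, no replicate error could be computed, and no difference below was tested. W12 shared barcoded libraries with the first W2 replicate, and every skin comparison shared the D0 list.

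The H3K27ac lists held 29081 to 33985 peaks over 23.1 to 32.1 Mb, the H3K4me1 lists of skin 69439 to 87287 domains, and the culture lists 110589 to 123338 intervals. The background pileup read from the steps of the H3K27ac fold enrichment was lowest at W1 (0.299), highest at W6 (0.677) and 0.501 at D0, 0.425 at W2 and 0.412 at W12. As a check of the label, all 6 basal epidermal markers (*Krt5*, *Krt14*, *Trp63*, *Itga6*, *Itgb4* and *Col17a1*) had an H3K27ac peak within 2500 bp of a start site in every list. Of 4 suprabasal markers, 2 had such a peak at D0, W1 and W6, 3 at W2 and 1 at W12. Of 6 hair follicle stem cell markers it was 3 at D0, W1 and W6, 5 at W2 and 1 at W12, and of 5 melanocyte markers it was 2 at W1 and 1 in each other list. Of 5 immune and 5 fibroblast markers, only *Cd207* and *Dcn* ever had a peak, both in the W12 list, while *Ptprc* and *Pdgfra* had none in any list. Endothelial *Pecam1* had a peak in every list and *Cdh5* at W12 only. The part of other cells and of unequal depth in the results below was not tested.

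Before SOX9 was induced, 8 of the 10 windows were densely acetylated. H3K27ac covered 18.9% of the *Junb* and 18.9% of the *Fosl1* window at D0, 17.3% of *Fosb*, 13.3% of *Fosl2*, 11.9% of *Fos*, 11.8% of *Atf3*, 8.20% of *Jund* and 7.85% of *Jun*. These levels lay above those of 92.9% (*Jun*) to 99.5% (*Junb*) of all protein-coding windows. *Batf3*, at 1.67%, and *Batf*, at 0.428%, were the exceptions and stood near or below the median of 1.42% for all protein-coding genes. The median of the members was 11.8%. The windows of *Fosl1*, *Junb*, *Fosb* and *Jund* also held start sites of 10, 9, 5 and 5 other protein-coding genes, whose peaks are part of these values. No other protein-coding gene started in the windows of *Fos*, *Fosl2* and *Jun*.

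**Figure D1:**
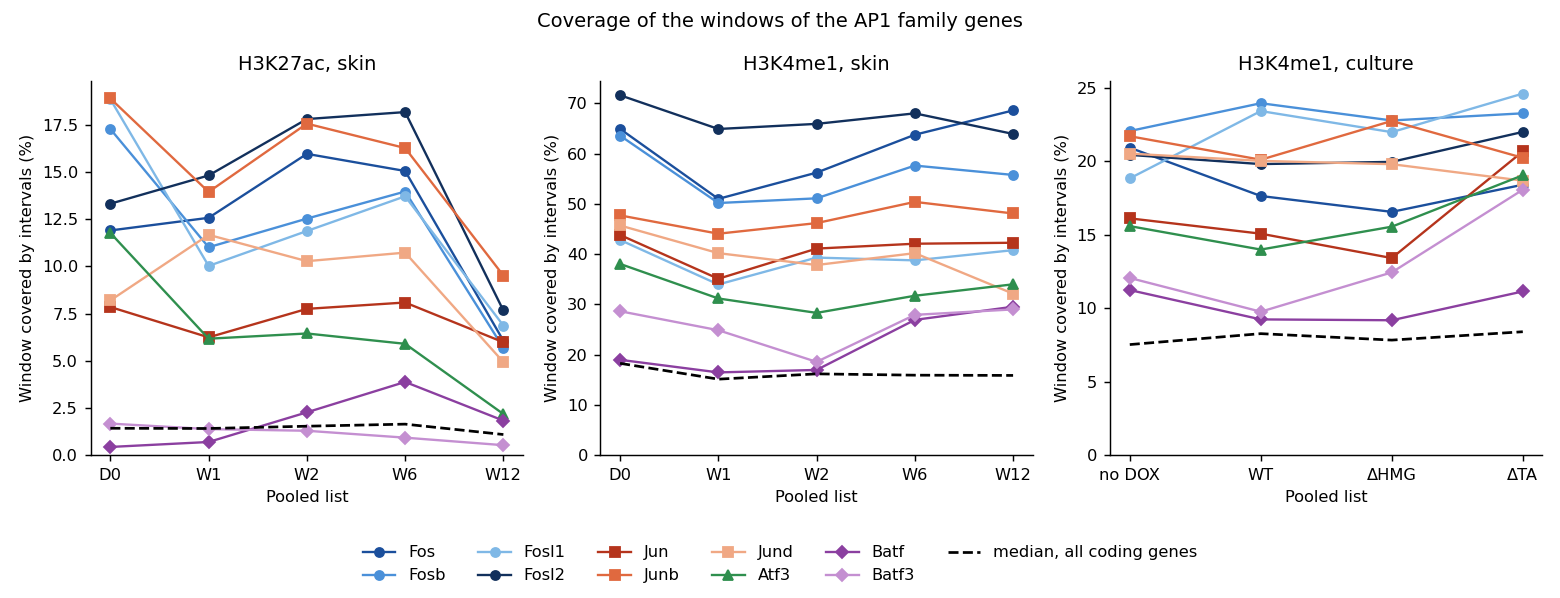
Percentage of each member's window covered by intervals in every pooled list (left, H3K27ac of skin at 5 time points; middle, H3K4me1 of skin; right, H3K4me1 of culture), with the median over 21938 protein-coding genes as a dashed line. All 10 members lie above that line in H3K4me1 of skin and culture, as do all but *Batf* and *Batf3* in H3K27ac, where *Batf* lies above it from W2 and *Batf3* at D0 only.

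At the start sites themselves, the folds fell into a strong and a weak group. A peak within 2500 bp of a start site reached a fold enrichment at D0 of 55.3 for *Fosl2*, 52.0 for *Junb*, 46.0 for *Fos*, 39.3 for *Jun* and 33.3 for *Jund*. Of the 10087 protein-coding genes with such a peak, 0.525% had a higher fold than *Fosl2* and 5.82% a higher fold than *Jund*. *Fosl1* (17.3), *Fosb* (15.99) and *Atf3* (15.99) were lower but above the median of 11.995 for those genes. *Batf* and *Batf3* had no H3K27ac peak near a start site at D0 or in any later list.

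The sequences upstream of *Fos*, *Junb* and *Atf3*, shown as examples of member promoters that hold TGACG, run from 250 bases before the RefSeq start to the base before it, 5′ to 3′ along the gene (GRCm38.p6). Capitals mark TGACG or its reverse complement, the core of the cAMP response element that ATF and CREB proteins and JUN dimers bind.
*Fos*, chr12:85473640-85473889, plus strand: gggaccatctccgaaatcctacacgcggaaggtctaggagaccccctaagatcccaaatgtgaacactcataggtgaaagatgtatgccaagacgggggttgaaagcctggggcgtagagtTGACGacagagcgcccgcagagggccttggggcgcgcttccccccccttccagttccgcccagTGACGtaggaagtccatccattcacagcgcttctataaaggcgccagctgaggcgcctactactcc
*Junb*, chr8:84978749-84978998, minus strand: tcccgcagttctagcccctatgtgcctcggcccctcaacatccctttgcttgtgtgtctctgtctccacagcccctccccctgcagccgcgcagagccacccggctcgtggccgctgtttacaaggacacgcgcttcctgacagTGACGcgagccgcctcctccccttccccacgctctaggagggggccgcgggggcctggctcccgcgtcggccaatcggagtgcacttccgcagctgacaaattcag
*Atf3*, chr1:191183334-191183583, minus strand: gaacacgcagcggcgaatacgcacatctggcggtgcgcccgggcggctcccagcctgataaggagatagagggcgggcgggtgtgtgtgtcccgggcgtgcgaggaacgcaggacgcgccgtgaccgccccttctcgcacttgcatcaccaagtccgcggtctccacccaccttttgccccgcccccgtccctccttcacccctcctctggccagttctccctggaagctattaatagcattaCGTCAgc
RefSeq gave such a sequence for 9 of the 10 members, all but *Fosl1*. These sequences follow RefSeq, while windows and peaks follow GENCODE: the RefSeq start lay 1210 bp from the nearest GENCODE start of *Jund* and 671 bp from that of *Fosl2*, and at most 89 bp from that of the other 7. TGACG stood on either strand in 5 of these 9 promoters (*Fos*, *Fosb*, *Junb*, *Atf3* and *Batf*, and not *Fosl2*, *Jun*, *Jund* or *Batf3*). It stood in 17.9% of the 27025 promoters of the table. The AP1 pattern TGANTCA was in 0 of 9, beside 6.87% of all. The median GC content was 64.4% for the members and 52.0% for all promoters. The search for TGACG was chosen after the promoter sequences had been seen.

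Among the FOS genes, *Fos* and *Fosl2* had more H3K27ac coverage at W1, W2 and W6 than at D0, and *Fosb* and *Fosl1* had less. *Fos*, the founding immediate early member, had 11.9% of its window covered in the D0 list, followed by 12.6% (W1), 15.96% (W2), 15.1% (W6) and 6.06% (W12). *Fosl2*, which encodes FRA-2, had 13.3%, 14.8%, 17.8%, 18.2% and 7.66% in the same order. Both were thus higher at W2 and W6 than at D0, within the 1.5-fold used as the call, and lowest at W12. *Fosb* had 17.3%, 11.01%, 12.5%, 14.0% and 5.68%, and *Fosl1*, which encodes FRA-1, had 18.9%, 10.02%, 11.9%, 13.7% and 6.86%. In these windows D0 was the highest list.

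The JUN genes stayed within 1.5-fold of D0 until W6. *Junb*, a JUN protein of differentiating keratinocytes, had 18.9%, 13.9%, 17.6%, 16.3% and 9.51% covered at D0, W1, W2, W6 and W12. *Jun* had 7.85%, 6.24%, 7.75%, 8.09% and 5.98%, and its widest log2 difference from D0, −0.39 at W12, was the smallest among the members. *Jund* had 8.20%, 11.7%, 10.3%, 10.7% and 4.93%, with D0 below W1, W2 and W6.

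The ATF and BATF genes gave the widest differences. *Atf3*, a stress-induced repressor, had 11.8%, 6.17%, 6.44%, 5.90% and 2.17% from D0 to W12, so that D0 was well above every later list. *Batf*, best known from lymphocytes, had 0.428%, 0.691%, 2.26%, 3.87% and 1.82%, with every later list above D0 and the highest value at W6. *Batf3*, a dendritic cell factor, had 1.67%, 1.37%, 1.29%, 0.921% and 0.522%. The windows of *Atf3* and *Batf3* overlap by 38650 bp and share the peaks there.

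Set against D0 in covered bases, 3 members were at least 1.5-fold lower at W1 (*Atf3*, *Fosb* and *Fosl1*), beside 18.8% of 16798 protein-coding windows, and 1 was higher (*Batf*), beside 19.5%. At W2, 2 members were lower (*Atf3* and *Fosl1*; 16.7% of all windows) and *Batf* was higher (23.9%). At W6, *Atf3* and *Batf3* were lower (13.3%) and *Batf* was higher (28.4%). The *Batf3* call turned with the intervals used: among those scoring above the median of their list it was higher than D0 by at least 1.5-fold at W1, W2 and W6. At W12, 8 members were lower, all but *Jun* and *Batf* (40.5%), and *Batf* was higher (19.9%). Up to W6, 3 or fewer of the 10 members were called in a direction, against 13.3% to 28.4% of all windows. The median log2 ratio to D0 was −0.30 for the members and −0.02 for all genes at W1, −0.06 and 0.10 at W2, −0.09 and 0.21 at W6, and −0.98 and −0.45 at W12.

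The members were also read against windows as densely covered at D0 as most of them were. Of the 3559 protein-coding windows with at least 5% covered at D0, 59.8% were lower by 1.5-fold at W12, and of the 8 members among them 7 were. The same windows gave 13.2% lower at W1, 11.9% at W2 and 10.9% at W6, against 3, 2 and 1 of the 8 members. None of the 8 was higher by 1.5-fold at any time, beside 4.36%, 7.5%, 11.1% and 0.225% of these windows from W1 to W12. The median log2 ratio of these windows at W12 was −0.70.

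**Figure D2:**
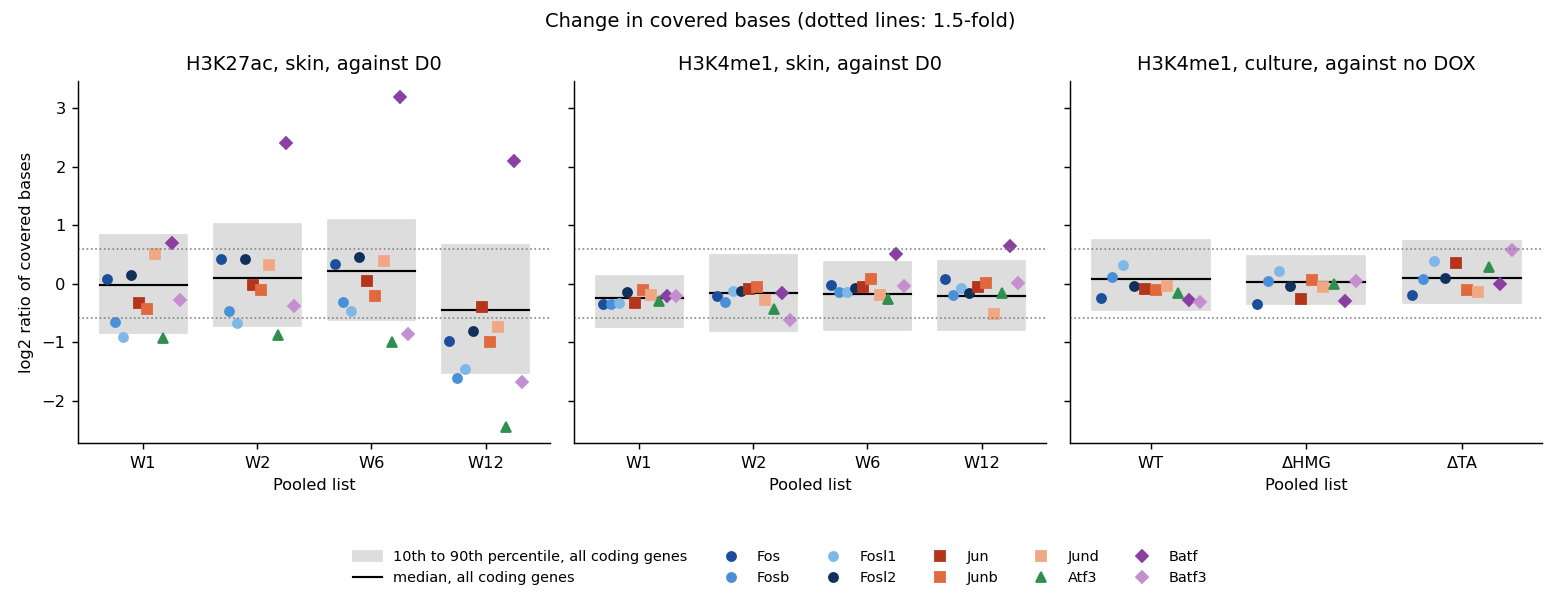
log2 ratio of covered bases to the reference list for each member (points), with the 10th to 90th percentile (grey) and median (black line) over all protein-coding genes and dotted lines at 1.5-fold. Outside the grey range in H3K27ac lie *Batf* at W2, W6 and W12 (2.40, 3.18 and 2.09), *Atf3* at every time (−0.93, −0.87, −0.998 and −2.44), *Fosl1* at W1, *Batf3* at W6 and W12 and *Fosb* at W12, and in H3K4me1 *Batf* at W6 and W12 (0.51 and 0.64).

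The higher *Batf* coverage lay mostly in distal peaks. In bases, H3K27ac covered 524, 846, 2771, 4743 and 2234 bp of its window from D0 to W12, that is 9.05-fold more at W6 than at D0. A region 21.1 to 18.7 kb upstream of the gene (chr12:85665600-85667946, intergenic) had no peak at D0 or W1 and a fold of 4.91 at W2, 12.5 at W6 and 5.88 at W12. It was the only 1 of the 122 member regions that D0 lacked and W2, W6 and W12 had, a history that 2.45% of regions in all protein-coding windows had. H3K4me1 domains overlapped it in all 5 skin lists, D0 included. A peak next to it (chr12:85668503-85669075) appeared at W6 with a fold of 4.77 and at W12 with 5.67. A region in the last intron of the annotated gene body, 18.1 to 20.7 kb downstream of its start (chr12:85704773-85707358), was in every list, at 4.66, 5.22, 7.72, 14.9 and 4.96 from D0 to W12. The W6 fold was the highest in both regions, and W6 was the list with the highest background pileup. No *Batf* start site carried H3K27ac in any list.

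The upstream *Batf* region is shown by the 300 bases around its W6 summit (GRCm38, plus strand, 19.6 kb upstream of the gene), followed by distal D0 peaks, over 2500 bp from any start site. For 9 members the strongest such peak was taken, and the 4 of highest fold are printed, those of *Fosl1*, *Fosl2*, *Fos* and *Fosb*. Capitals mark TGANTCA, the AP1 pattern searched, or ACAAAG or ACAATG, core letters of SOX sites, on either strand.
*Batf* upstream, chr12:85666929-85667228: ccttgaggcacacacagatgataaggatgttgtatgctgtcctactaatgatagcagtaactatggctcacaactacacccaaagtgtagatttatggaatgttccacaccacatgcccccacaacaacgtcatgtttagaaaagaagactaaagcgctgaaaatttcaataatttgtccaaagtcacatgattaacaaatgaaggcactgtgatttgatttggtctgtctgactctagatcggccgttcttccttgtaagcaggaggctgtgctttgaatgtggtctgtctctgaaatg
*Fosl2* upstream, chr5:32121764-32122063: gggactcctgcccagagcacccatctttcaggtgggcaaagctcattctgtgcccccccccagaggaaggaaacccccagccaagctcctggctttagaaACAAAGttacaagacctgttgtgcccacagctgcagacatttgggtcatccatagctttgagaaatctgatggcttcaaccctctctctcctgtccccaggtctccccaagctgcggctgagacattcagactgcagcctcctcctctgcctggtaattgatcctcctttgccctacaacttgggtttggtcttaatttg
*Fos* upstream, chr12:85455626-85455925: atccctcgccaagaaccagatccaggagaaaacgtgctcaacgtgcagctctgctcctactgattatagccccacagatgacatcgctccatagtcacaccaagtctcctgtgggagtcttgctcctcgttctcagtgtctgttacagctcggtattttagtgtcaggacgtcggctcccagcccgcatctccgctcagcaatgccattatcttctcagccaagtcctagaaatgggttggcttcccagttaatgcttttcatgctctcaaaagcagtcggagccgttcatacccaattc
*Fosb* upstream, chr7:19326972-19327271: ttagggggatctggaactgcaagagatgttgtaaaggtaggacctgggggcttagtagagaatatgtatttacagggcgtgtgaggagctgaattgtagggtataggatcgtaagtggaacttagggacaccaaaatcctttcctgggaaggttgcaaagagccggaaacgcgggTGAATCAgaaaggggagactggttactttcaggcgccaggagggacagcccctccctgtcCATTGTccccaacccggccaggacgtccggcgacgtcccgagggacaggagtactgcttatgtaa
*Fosl1* upstream, chr19:5430295-5430594: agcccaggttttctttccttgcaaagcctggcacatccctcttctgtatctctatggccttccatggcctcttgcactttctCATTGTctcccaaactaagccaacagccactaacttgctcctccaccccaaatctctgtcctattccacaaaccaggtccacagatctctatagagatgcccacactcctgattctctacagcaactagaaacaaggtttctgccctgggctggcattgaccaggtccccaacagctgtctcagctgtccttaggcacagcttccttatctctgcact
The *Batf* window of 300 bases held no match. The *Fosb* window held 1 TGANTCA and 1 SOX core, the *Fosl2* and *Fosl1* windows 1 SOX core each, and the *Fos* window no match. Of the 9 strongest distal D0 peaks, 1 held TGANTCA, 3 a SOX core and 6 neither. Across the summit windows of H3K27ac peaks in the member windows, TGANTCA was in 12.2%, 11.5%, 14.1%, 15.7% and 12.5% from D0 to W12, beside 8.45% to 9.34% of all peaks of a list. The SOX letters stood in 22.2%, 24.4%, 29.6%, 18.1% and 19.4%, beside 29.1% to 32.7% of all peaks. The direction for SOX depended on the length searched: over whole peaks the members were at 58.9%, 59.0%, 71.8%, 65.1% and 45.8% and all peaks at 55.6%, 59.0%, 64.5%, 58.8% and 52.3%, so that the members were above all peaks at D0, W2 and W6. Whole peaks were not matched for length between the members and all peaks, and the part of length in these shares was not tested. No more than 13 of 83 windows of a list lay behind the share of TGANTCA at summits, so that a few peaks move it.

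Up to W6, the lower *Atf3* coverage lay mostly outside its main cluster of start sites. At the cluster of start sites inside the annotated gene body (chr1:191181780-191187149), the peak fold was 15.99, 11.5, 14.0 and 12.5 from D0 to W6, and W12 had no peak there. Peaks covered 4269, 3169, 3696 and 4758 bp of it, so that W6 had more than D0. The nearest region towards the 3′ end (chr1:191180170-191181361) had folds of 5.33, 4.62, 4.21 and 5.37 from D0 to W6 and no peak at W12. The region beyond it (chr1:191176629-191179054) had 2195 bp at D0, 333 bp at W6 and none in the other lists. Over the 3′ end and past it (chr1:191158589-191175799) lay 8 regions without H3K4me1 in any skin list, out of 10 such regions in all member windows. Those 10 were 8.20% of the 122 member regions, near the 9.17% of the 56298 regions in all protein-coding windows. D0 had peaks in 6 of them, with folds of 3.27 to 6.42, W1 in 1, W2 in 0, W6 in 3 and W12 in 0. Without peaks outside H3K4me1, *Atf3* coverage was 8.31%, 5.66%, 6.44%, 4.88% and 2.17% from D0 to W12, and its calls at W1 and W2 were lost, a setting chosen after seeing the data. By contrast, the peak 7.7 to 5.4 kb upstream of the gene, at the start of the long noncoding gene *D730003I15Rik*, was present throughout at 40.0, 15.4, 16.1, 23.3 and 16.3.

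**Figure D3:**
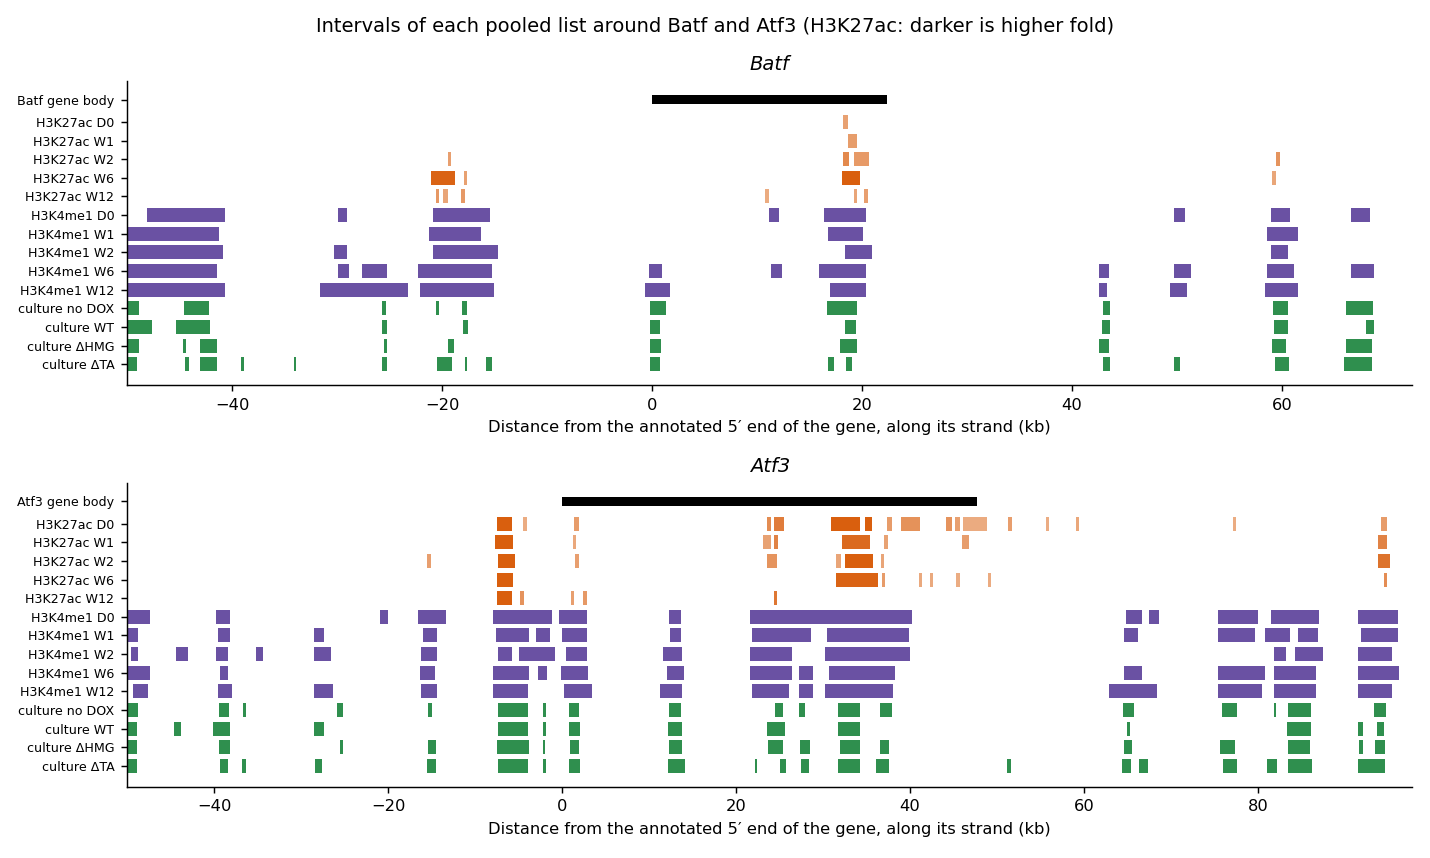
Intervals of all 14 lists around *Batf* and *Atf3*, against distance from the annotated 5′ end of the gene in kb along its strand (orange, H3K27ac, darker for a higher fold; purple, H3K4me1; green, culture H3K4me1; black, gene body). The upstream *Batf* peaks lie within H3K4me1 domains present from D0, and the D0 peaks of *Atf3* beyond its last H3K4me1 domain are mostly absent later.

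Start-site folds of the 8 acetylated members were below D0 in every later list, as were those of most genes. *Fos* had folds of 46.0, 23.9, 26.0, 24.5 and 19.8 from D0 to W12. *Fosl2* had 55.3, 24.6, 23.2, 29.2 and 20.5. *Junb* had 52.0, 19.2, 18.2, 23.3 and 12.04, the lowest ratio to D0 of the 8 at each time. *Jun* had 39.3, 19.2, 23.9, 32.2 and 24.1, and *Jund* had 33.3, 16.9, 15.4, 24.5 and 10.6. *Fosl1* had 17.3, 6.93, 7.02, 16.1 and 7.79, near its D0 value again at W6, and *Fosb* had 15.99, 6.93, 9.82, 11.3 and 7.08. *Atf3*, with several start sites, had 15.99, 11.5, 14.0, 12.5 and 5.67. Its W12 value came from another start site (peak at chr1:191215181-191215580) than the main cluster behind the earlier values, so that its W12 ratio compares different sites. The median ratio to D0 of the 8 members was 0.468, 0.514, 0.721 and 0.401 from W1 to W12. Among 3561 protein-coding genes with a D0 fold of at least 15 and a peak in every list, the median ratios were 0.492, 0.605, 0.774 and 0.432, slightly above those of the members. Ranked within its own list, *Junb* went from 0.892% of genes with a higher fold at D0 to 8.76% at W2 and 14.5% at W12. *Jun* went the other way, from 3.14% at D0 to 0.966% at W6 and 0.471% at W12, and *Fosl2* stayed between 0.525% and 2.91%.

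**Figure D4:**
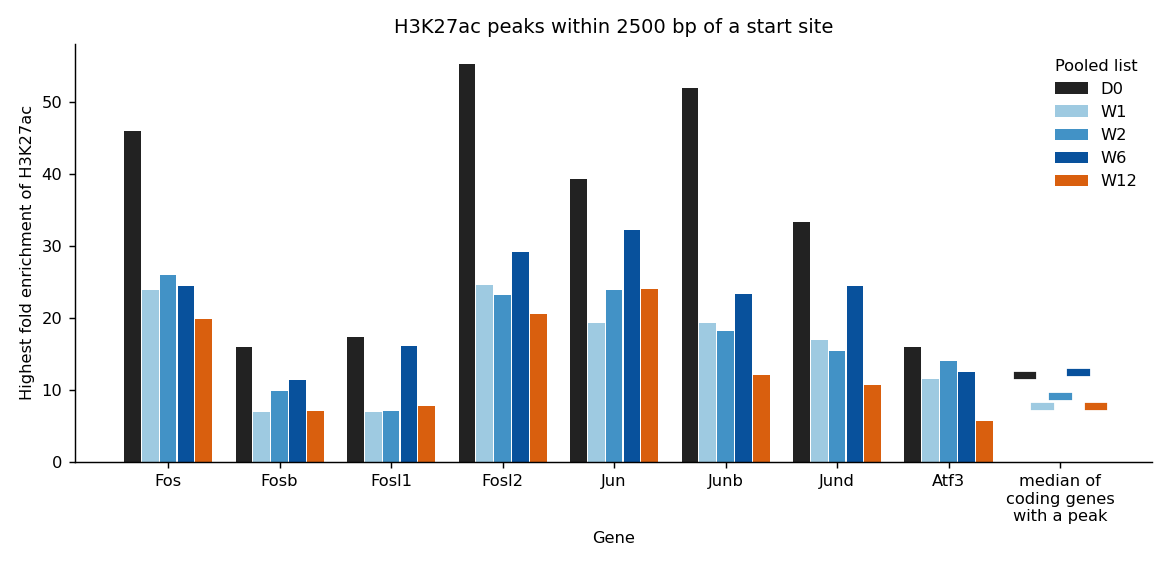
Highest H3K27ac fold enrichment of a peak within 2500 bp of a start site of each acetylated member in the 5 pooled lists (bars), with the median over protein-coding genes that have such a peak as short lines. D0 is the highest bar for all 8 genes, and the median over genes is 11.995 at D0 and 7.70 at W1.

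Merging the 5 H3K27ac lists gave 122 regions in the member windows, of which 57 lay within 2500 bp of a start site of some gene, 32 were intergenic, 21 intronic and 12 overlapped an exon. In every list were 30 regions (24.6%, against 17.0% of the 56298 regions in all protein-coding windows), among them 6 each at *Fosb* and *Fosl1*, 5 at *Fos* and 4 at *Jund*. D0 alone had 18 (14.8%, against 9.39%), 5 each at *Fosb* and *Atf3*, 3 each at *Fos* and *Fosl1* and 2 each at *Fosl2* and *Batf3*. W12 alone had 11 (9.02%, against 19.4%). A further 12 were in every list but W12 (9.84%, against 4.85%). *Junb*, *Jund* and *Jun* had no region that was in the D0 list alone.

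The strongest regions of the D0 list alone were at or just above the median fold of that list, 5.998. They lay at the 3′ end of *Fosl1*, within 2500 bp of the *Ccdc85b* start (chr19:5454136-5456028, fold 6.78), in an *Atf3* intron (chr1:191173188-191173870, 6.42) and about 15.4 kb upstream of *Fosb*, in an intron of the gene *D830036C21Rik* (chr7:19325465-19326089, 5.998), the last tied with a region 16.5 to 17.2 kb upstream of *Fos* (chr12:85456696-85457386). Among the strongest distal D0 peaks, that upstream of *Fosl1* (chr19:5429083-5431140) went from 21.3 at D0 to 7.70, 4.91, 7.08 and 5.67. That upstream of *Fosl2* (chr5:32120480-32126332) went from 19.99 to 10.01, 14.0, 17.9 and 8.50, and that 17.3 to 19.5 kb upstream of *Fos* (chr12:85454392-85456591) from 15.99 to 8.47, 12.6, 8.35 and 6.38. The *Fosb* peak went from 14.0 to 6.16, 8.42, 7.75 and 4.96. Other *Fos* elements ran higher after D0. The region up to 14.1 kb downstream of its start (chr12:85484901-85487988) was at 7.997, 8.47, 10.5, 13.7 and 7.79, and that 21.3 to 22.7 kb upstream (chr12:85451213-85452566) at 9.996, 9.24, 13.3, 13.7 and 8.50.

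Of the 90 D0 peaks in the member windows, 59, 60, 61 and 42 overlapped a peak of the W1, W2, W6 and W12 list. As shares these are 65.6% (exact 95% interval 54.8% to 75.3%, counting error only), 66.7% (55.9% to 76.3%), 67.8% (57.1% to 77.2%) and 46.7% (36.1% to 57.5%). In all protein-coding windows 36.3%, 37.4%, 36.1% and 52.8% of D0 peaks were not found again, that is 63.7%, 62.6%, 63.9% and 47.2% were, within those intervals. Peaks without a counterpart at D0 were 14 of 78, 13 of 71, 21 of 83 and 21 of 72 in the same order. These are 17.9%, 18.3%, 25.3% and 29.2%, below the 39.6%, 37.9%, 37.9% and 52.7% of all windows.

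H3K4me1 was broad over the same genes, and its log2 ratios to D0 stayed between −0.63 and 0.64. In *Fosl2* it covered 71.6%, 64.9%, 65.9%, 68.0% and 63.9% of the window from D0 to W12, and in *Fos* 64.9%, 50.99%, 56.2%, 63.8% and 68.6%. *Fosb* followed with 63.6%, 50.2%, 51.1%, 57.6% and 55.8%. The JUN genes and *Fosl1* lay lower. *Junb* had 47.7%, 44.1%, 46.2%, 50.4% and 48.1%, *Jund* 45.7%, 40.2%, 37.8%, 40.2% and 32.1%, *Jun* 43.8%, 35.1%, 41.1%, 42.1% and 42.3%, and *Fosl1* 42.8%, 33.9%, 39.3%, 38.7% and 40.8%. *Atf3* had 38.04%, 31.2%, 28.3%, 31.7% and 34.0%, *Batf3* 28.6%, 24.8%, 18.5%, 27.9% and 29.0%, and *Batf* 19.0%, 16.4%, 16.9%, 26.9% and 29.5%. All 10 were at or above the median over protein-coding windows, which was 18.3% at D0 and 15.1% to 16.2% later. Among domains overlapping the member windows, the widest at D0 was 31000 bp, at *Fos*, and the widest of all 5 lists was 40200 bp, at *Fosl2* at W2.

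All 10 members were lower at W1 and at W2 than at D0, 8 were lower at W6 and 6 at W12, and few passed 1.5-fold. The H3K4me1 of all genes was also lower. Median log2 ratios were −0.25 for the members and −0.24 for all genes at W1, and −0.19 and −0.16 at W2. They were −0.07 and −0.18 at W6, and −0.06 and −0.21 at W12. At W1 and W6 no member was called in either direction, beside 18.2% and 18.7% of windows lower and 2.54% and 7.51% higher. At W2 only *Batf3* was lower, by 1.54-fold (19.7% of windows), and none was higher (9.09%). At W12 only *Batf* was higher, by 1.56-fold (7.49%), and none was lower (19.8%). Of 103 D0 domains, the shares found again from W1 to W12 were 82.5% (73.8% to 89.3%), 76.7% (67.3% to 84.5%), 88.3% (80.5% to 93.8%) and 84.5% (76.0% to 90.9%). In all windows 26.7%, 31.0%, 25.2% and 29.6% were not found again, so that the shares of the members were above those of all windows, outside the counting interval at W1, W6 and W12. The interval takes the domains of the 10 windows as independent. Domains without a counterpart at D0 made up 1.05%, 6.52%, 8.74% and 8.57% of those in the member windows, beside 5.41%, 17.2%, 15.2% and 14.0% in all windows. Member windows had a higher median coverage than all windows in every list, for H3K4me1 at D0 44.7% against 18.3%. No share over equally covered windows was computed. The part of coverage in the shares of H3K4me1, H3K27ac and culture was not tested. Of the H3K27ac peaks of the members, 81 of 90 lay on an H3K4me1 domain of the same time at D0, and 98.7%, 100%, 95.2% and 91.7% did so from W1 to W12, while in all windows the shares from D0 to W12 were 96.0%, 94.3%, 96.4%, 97.5% and 76.8%.

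**Figure D5:**
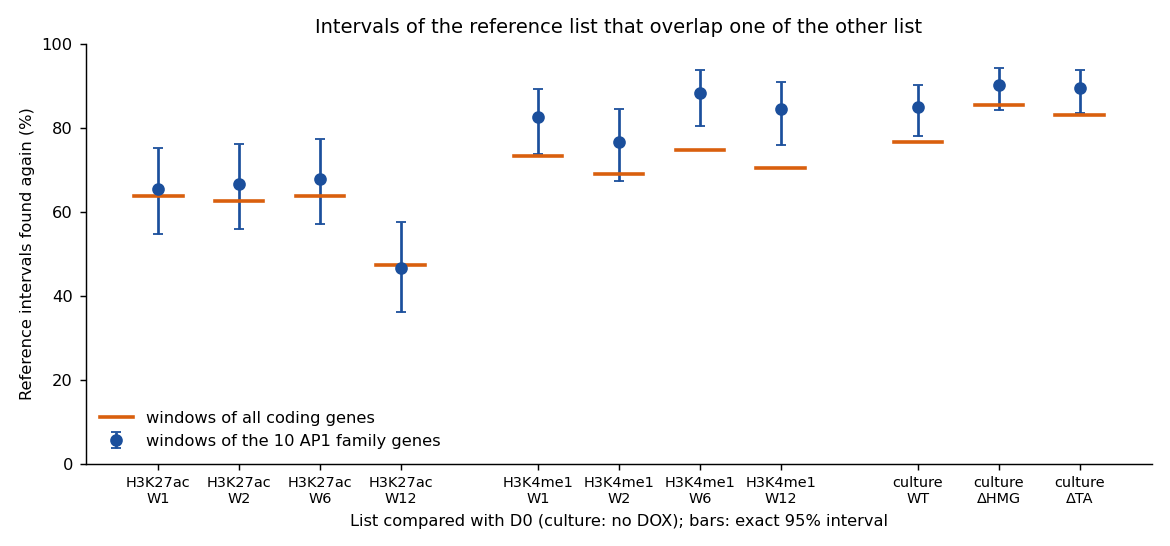
Share of reference intervals (D0, or no DOX in culture) in the 10 member windows that overlap an interval of each other list (points, with exact 95% intervals for counting error) and the same share over windows of all protein-coding genes (lines). H3K27ac shares of the members lie close to the lines, at 46.7% against 47.2% at W12, and H3K4me1 shares lie above them. The lines are not matched for the denser coverage of the member windows.

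In cultured EpdSCs no member passed 1.5-fold with any form of SOX9. *Fosb* had 22.1% of its window covered in the list without DOX, and 24.0% (WT), 22.8% (ΔHMG) and 23.3% (ΔTA) in those with DOX. *Fos* had 20.9%, 17.6%, 16.6% and 18.4%, *Fosl1* 18.8%, 23.4%, 22.0% and 24.6%, and *Fosl2* 20.4%, 19.8%, 19.97% and 22.0%. *Junb* had 21.7%, 20.1%, 22.8% and 20.2%, *Jund* 20.5%, 20.04%, 19.8% and 18.7%, and *Jun* 16.1%, 15.1%, 13.4% and 20.7%. *Atf3* had 15.6%, 14.0%, 15.6% and 19.1%. *Batf* had 11.2%, 9.24%, 9.18% and 11.1%, and *Batf3* 12.1%, 9.76%, 12.4% and 18.1%, the last 1.498-fold above no DOX and just inside the limit. Among all protein-coding windows 7.88% were lower and 15.7% higher with the WT form, 4.6% and 8.21% with ΔHMG, and 3.81% and 15.8% with ΔTA. The median of the members was 19.6%, 18.7%, 18.2% and 19.7%, against 7.52% to 8.40% for all windows.

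Of 152 intervals without DOX, 129 were found again with the WT form (84.9%, 78.2% to 90.2%), 137 with ΔHMG (90.1%, 84.2% to 94.4%) and 136 with ΔTA (89.5%, 83.5% to 93.9%), while in all windows 23.3%, 14.6% and 16.9% were not found again. Intervals without a counterpart in the list without DOX were 14.2%, 8.67% and 17.9% of those in the member windows and 27%, 18.9% and 24.2% in all windows. The upstream *Batf* region that had H3K27ac in skin from W2 on overlapped an interval of every culture list but that of WT SOX9. *Fosl2*, whose start site had the highest H3K27ac fold of the members at D0, had no culture interval within 2500 bp of a start site in any list, and *Batf*, without H3K27ac at its start, had an interval there in all 4, at folds of 4.09, 4.63, 5.13 and 3.98. Of the 122 H3K27ac regions, 82 overlapped an interval of the culture without DOX and 30 overlapped none of the 4 lists, 9 of these at *Atf3*. The same shares over the regions of all protein-coding windows were not computed, so that these counts cannot be called high or low.

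Related genes were counted in the same way for H3K27ac at W2 against D0, where 16.7% of all windows were lower and 23.9% higher. Of 12 other bZIP genes 3 were lower and 2 higher, with *Atf7* 1.85-fold and *Bach2* 1.82-fold higher and *Batf2* 1.65-fold lower. Of 10 other immediate early genes 1 was lower (*Nr4a1*, 1.61-fold) and 3 were higher: the zinc finger genes *Egr3*, 2.29-fold, and *Egr2*, 1.91-fold, and *Ier3*, 1.90-fold. Of 10 MAP kinases and MAP kinase kinases upstream of AP1, 1 was lower (*Mapk9*, with 0.305% at D0 and 0% at W2) and 2 were higher (*Mapk7*, 2.71-fold, and *Mapk3*, 1.51-fold). Of 12 epidermal AP1 targets 4 were lower (*Plau*, *Mmp3*, *Mmp10* and *Mmp13*) and 2 higher. *Plaur*, the urokinase receptor, was 5.44-fold higher and *Sprr1b*, a cornified envelope gene, 2.74-fold higher. Both started low, at 0.286% and 0.537% of the window at D0, and had 0% at W1. *Mmp3* was 2.30-fold lower, from 0.954% at D0, and *Plau* 1.72-fold lower, from 7.88%. *Mmp10* (0.515% at D0) and *Mmp13* (1.67%) had no interval left at W2. At W12, 6 of the 10 immediate early genes were lower and none was higher, beside the 40.5% and 19.9% of all windows. These genes had a median of 7.40% covered at D0. Of the windows with at least 5% covered at D0, 59.8% were lower and 0.225% higher at W12, near the values of these genes. At W1, 7 of the 12 targets were lower and 1 was higher, beside 18.8% and 19.5% of all windows. Among the lower targets, *Mmp3* (0.954% at D0) and *Mmp10* (0.515%) had 0% at W1, as had *Plaur* and *Sprr1b*. These calls thus rest on little covered sequence, and no share over windows as thinly covered at D0 was computed. At W6, 6 of the 10 kinases were higher and 1 was lower, beside 28.4% and 13.3%. Median log2 ratios at W2 were taken over genes covered in both lists, so without *Mapk9*, *Mmp10* and *Mmp13*, which had lost all coverage. They were 0.02 for the bZIP genes, 0.10 for the immediate early genes, 0.18 for the kinases and 0.02 for the targets. The value for all genes was 0.10.

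The protein-coding genes closest to the median of the members over the 10 skin lists were *Rack1* (distance 0.289 on the log2 scale of percent covered), *Trim41* (0.383) and *Cdh3*, which encodes P-cadherin of basal keratinocytes (0.383). The windows of *Rack1* and *Trim41* on chromosome 11 overlap, so that they hold largely the same intervals. *Cdh3* had H3K27ac over 10.8%, 12.5%, 11.5%, 10.7% and 6.48% of its window. The members themselves lay 0.743 (*Jund*) to 7.12 (*Batf3*) from their own median. *Rack1*, *Trim41* and *Cdh3* were picked for their small distance, so that theirs cannot be compared with those of the members.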

How the data were processed

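Histone marks were profiled by MINT-ChIP, a multiplexed ChIP-seq of barcoded chromatin, in sorted mouse EpdSCs and, for H3K4me1, in cultured EpdSCs. Per the labels, the authors aligned reads to mm10 with Bowtie2 (2.2.9), used SAMtools (1.9), Picard and deepTools (2.5.4), and called intervals with MACS2 (2.1.1) and SICER (0.0.36, as epic2) after pooling replicates. The deposited H3K4me1 lists of skin give a p-value per domain. The deposited H3K27ac and culture lists hold for each interval its score (a whole number), fold enrichment over background and −log10 p. The caller settings of the culture lists are not given in the sources used here, and the names of these lists gave their condition. Barcode tables and total H3 were not used here, and no read count per library was at hand, so that depth entered only through the background pileup.

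Windows, overlaps (at least 1 bp) and start sites followed GENCODE M21. Covered bases were compared with D0, or with the culture without DOX, and called at 1.5-fold, leaving out windows at 0 in both lists. Medians and percentiles of log2 ratios left out windows at 0 in either list. Intervals of shares are exact (Clopper-Pearson, 95%) and reflect counting error alone. Python (3.11.15), pandas (2.3.3), NumPy (2.4.6), SciPy (1.17.1) and Matplotlib (3.10.9) were used, and the code was tested on simulated data. Named were all 10 members, from each gene list at most 3 genes past 1.5-fold at W2 by size, and peaks by their history. *Nr4a1*, *Plau* and *Mmp10*, which complete the counts they stand beside, were named after their values were seen. Members and lists were chosen with earlier results of these data known. Alternatives were another flank, threshold, overlap, list length, joining and peak class, and 1 added after seeing the data.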

Additional observations from a re-analysis of the deposited data

How the results depend on the processing

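No paired analysis was possible because each mark had 1 pooled list per time point or condition, and for the same reason no replicate could be left out. Of 209 values of 43 results under alternatives, 159 stayed close to the reported value and 50 moved, and the cause was not tested. Where each list was reduced to intervals scoring above its median, members higher in H3K27ac were 3 at W2 (*Batf3*, *Fosl2* and *Batf*) and 2 at W6 (*Batf3* and *Batf*), so that *Batf3* turned from lower to higher at W6, members lower were 1 at W6 (*Atf3*), the 1 member higher at W1 was *Batf3* in place of *Batf*, and 76.9% of D0 peaks were found again at W1 and 76.9% at W2. In H3K4me1 members lower were then 3 at W1, and members higher 1 at W2 and 1 at W6. In culture 1 was then lower and 1 higher with WT SOX9, 1 higher with ΔHMG and 1 higher with ΔTA, and 68.5%, 81.5% and 80.4% of intervals were found again. With a 2-fold call, H3K27ac gave 0 lower at W1, W2 and W6, 0 higher at W1 and 4 lower at W12, and H3K4me1 gave 0 lower at W2 and 0 higher at W12. *Batf* stayed higher at W2, W6 and W12. With flanks of 10 kb, H3K4me1 gave 1 lower and 0 higher at W12 and 86.7% found again at W2, and culture gave 1 lower and 1 higher with WT, 2 lower with ΔHMG, 2 lower with ΔTA and 90.9% found again with WT. Without start sites of other genes, H3K27ac gave 2 higher at W1, H3K4me1 1 higher at W1, 2 lower and 1 higher at W2, and 1 lower and 2 higher at W12, and culture 1 higher with ΔTA, as did joining intervals under 1000 bp apart (1, *Batf3*). Lists of equal length gave 93.1% of H3K4me1 domains found again at W12. Leaving out peaks outside H3K4me1, chosen after seeing the data, gave 1 lower at W2 (*Fosl1*) and 1 at W6 (*Atf3*), ending the *Batf3* call there. Searching whole peaks in place of 300 bases raised TGANTCA to 38.9%, 32.1%, 42.3% and 36.1% of member peaks from D0 to W6, beside 24.7%, 24.9%, 31.2% and 25.4% of all peaks, and the SOX letters to 58.9%, 59.0%, 71.8%, 65.1% and 45.8% from D0 to W12, beside 55.6%, 59.0%, 64.5%, 58.8% and 52.3%, which turned the SOX difference at D0, W2 and W6. Member peaks and all peaks were not matched for length here, and the part of length was not tested.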
